A study of Mus musculus with 6 samples.

Results

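Volatile anaesthetics such as sevoflurane act on ligand-gated and background ion channels, and 49 protein-coding genes of these channel families were followed in melanomas grown from sevoflurane-primed cells. The genes were chosen by symbol alone, as subunits of the GABA-A receptor (19 genes), the glycine receptor (5 genes), the NMDA receptor (7 genes), the K2P potassium channels (14 genes) and the HCN channels (4 genes), from 53801 listed genes of which 21967 were protein-coding. The rule on symbols used no measured value, though the channel genes were chosen with earlier results of these data known.

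GABA-A and glycine receptors are chloride channels opened by an inhibitory transmitter, and inhaled anaesthetics prolong their opening. NMDA receptors are glutamate-gated cation channels that need glycine or D-serine as a co-agonist, and their currents are dampened by these agents. K2P channels carry the potassium leak that sets the resting potential, several of them opened by volatile anaesthetics, while HCN channels carry the pacemaker current that the same agents reduce. All of these families are known chiefly from neurons, muscle or heart, and a melanoma is not a tissue in which most of them are usually described.

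RNA came from pieces of tumours grown under the skin of C57BL/6 wild type male mice from B16-F10 cells, a single mouse melanoma line. In SEVO (3 tumours) the cells had been exposed to sevoflurane in culture before injection, in CTRL (3 tumours) they had not, and the mice of neither group were anaesthetised. The comparison asks what remained of the priming in the grown tissue. Monocytes is the cell type in the labels, beside a melanoma source, and whole tumour tissue was assumed here. Fewer cells of a type and less RNA per cell cannot be told apart in such tissue. No label ties a tumour to its own mouse, so each p-value measures the spread between these samples.

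Few of the aligned reads were assigned to genes. Genes received 723431 to 1348676 reads per tumour, 2.06% to 4.61% of the uniquely aligned reads, and the predicted genes Gm10800 and Gm10801 took from 1.31% (CTRL tumour 2) to 49.0% (CTRL tumour 1) of them. Actb, which every cell uses, had 57 to 228 reads and Gapdh 17 to 42. Tumours of the same group differed beyond counting noise (chi-squared per gene between 2.17 and 22.9 over the pairs).

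To separate a signal from background, each gene was set against olfactory receptor genes (Olfr, 1135 genes), which are used in the nose and served as a measure of reads that fall on silent genes. Density is reads per kb of merged exons, and the ratio is a gene's density over the pooled Olfr density of the same tumour. The Olfr density itself was 1.55, 0.102 and 0.714 reads per kb in CTRL tumours 1 to 3 and 0.228, 0.263 and 0.478 in SEVO tumours 1 to 3. It was thus highest and lowest within the same group, so a gene that holds only background reads can differ many-fold between tumours.

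At this measure most of the channel genes were close to background. The Olfr density was exceeded in every tumour by 11 of the 49 genes (Gabrb1, Glra4, Glrb, Grin2b, Grin2d, Grin3a, Grin3b, Hcn2, Kcnk7, Kcnk10 and Kcnk18), while 36.5% of all protein-coding genes did so. In some tumours only, 34 genes lay above it, and 4, Glra2 and Glra3 among them, did so in none. The 95th percentile of single Olfr genes, a stricter line, was exceeded in every tumour by 3 genes, Grin3b, Glrb and Kcnk7, against 15.8% of all protein-coding genes. With the lower bound of the exact 95% Poisson interval in place of the density, which covers counting error only, 4 genes (Grin2d, Grin3a, Grin3b and Glrb) stayed above the Olfr density and Grin3b alone above the percentile. The genes nearest to the line were Gabrb1, with a lowest ratio of 1.17, and Grin1, with a lowest ratio of 0.932. In CTRL tumour 2, which had the fewest Olfr reads, 26 of the 49 genes had 0 reads, against 1 in CTRL tumour 1 and 5 to 15 in the other tumours.

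Marker genes of cell types were set against the same lines, and which cells the tissue held was not tested. All 9 melanoma markers lay above the 95th percentile of Olfr genes in every tumour, with 1181 to 1267 summed reads in CTRL and 577 to 1758 in SEVO. Of the 8 neuronal markers none did, and their summed reads were 10 to 85 in CTRL and 13 to 25 in SEVO. The lower line, the Olfr density, was exceeded in every tumour by 2 of these 8. Of the 9 macrophage or monocyte markers 2 did (Csf1r and Cd68), with 162 to 222 summed reads in CTRL and 208 to 277 in SEVO. Among the other lists 1 of 6 Schwann cell, 1 of 7 T and NK cell, 3 of 5 erythroid, 0 of 5 endothelial, 0 of 5 fibroblast, 0 of 5 muscle and 0 of 4 keratinocyte genes passed the percentile, and no list held a gene at 0 in all tumours. The Olfr density was exceeded in every tumour by 2 of the 5 endothelial, 1 of the 5 fibroblast, 1 of the 5 muscle and 0 of the 4 keratinocyte genes.

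**Figure D1:**
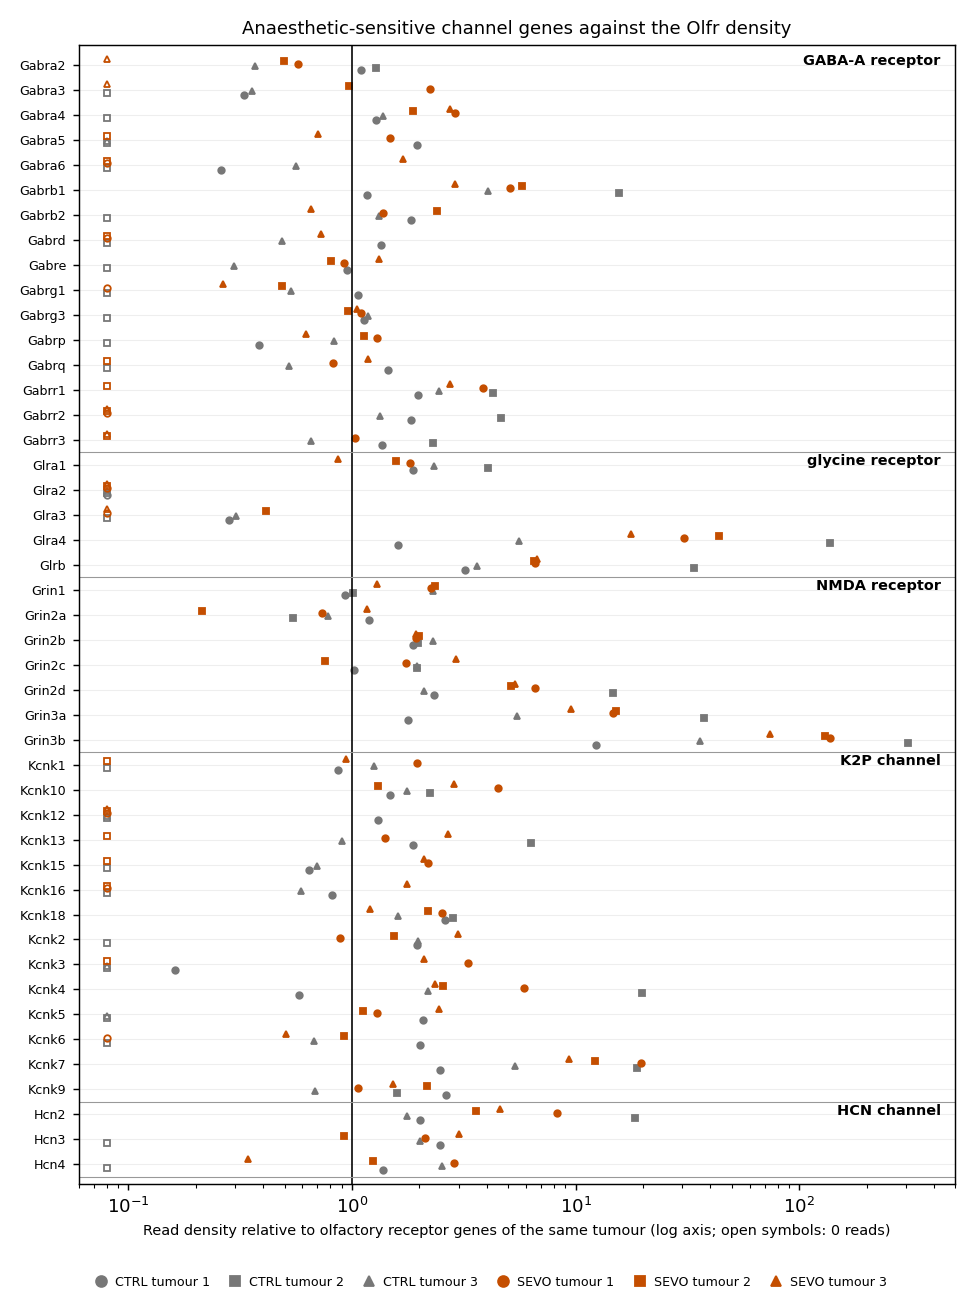
Read density of 45 of the 49 channel genes relative to the pooled density of olfactory receptor genes in the same tumour (horizontal log axis, 1 line per gene, grouped by family); grey symbols are the 3 CTRL tumours, orange symbols the 3 SEVO tumours, open symbols 0 reads, and the vertical line marks the Olfr density. Most genes scatter around the line, while Grin3b, Grin3a, Glra4 and Glrb lie to its right in every tumour and CTRL tumour 2 is their farthest point.

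The strand setting of the counting is not given in the sources used here, so reads of a gene and of a partner that overlaps it on the other strand cannot be told apart. Whether the counted reads lay on the strand of their gene or on the other strand was not tested, and this holds for every read count given here, also for genes with no overlapping partner. Among all protein-coding genes, 34.9% of those with exon bases opposite the exons of another gene passed the 95th percentile in every tumour, against 9.69% of those without. Of the 49 channel genes 15 have such bases, and of the 11 above the Olfr density in every tumour 4 do (Gabrb1, Grin2b, Grin2d and Grin3b). The part of opposite genes in these reads was not tested.

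The NMDA receptor family had the highest pooled density of the 5 families in every tumour. It was 2.01, 20.7 and 3.81 times the Olfr density in CTRL tumours 1 to 3 and 9.62, 9.17 and 6.17 times in SEVO tumours 1 to 3, so that the CTRL tumours enclosed the SEVO tumours. In CTRL tumour 2 the glycine receptor family was nearly level with it, at 20.6 times. All 7 NMDA receptor genes had reads in every tumour. Over the 6 tumours Grin3b had 583 reads and Grin3a 275, while each of the others had 26 to 165. The pooled density of the family without Grin3b and Grin3a was not computed. Grin3b and Grin3a encode the glycine-binding subunits that lower the calcium flux of the receptor, and Grin1 encodes the subunit without which no functional receptor forms.

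Grin3b (ENSMUSG00000035745.9; GRCm38, chromosome 10, 79970715 to 79977190, plus strand) was the highest of all 49 genes. It had 63, 103 and 85 reads in CTRL tumours 1 to 3 and 103, 113 and 116 in SEVO tumours 1 to 3. The lowest value belonged to CTRL tumour 1, and the highest CTRL and the lowest SEVO tumour had the same number, so the groups touched. Relative to Olfr its density ran from 12.3 (CTRL tumour 1) to 307 (CTRL tumour 2), since its reads changed little between tumours whose Olfr reads were 5668 and 373. Of its 3296 exon bases, 1059 also lie in exons of Tmem259 on the opposite strand, a gene that itself had 7 to 13 reads per tumour.

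Grin3a (ENSMUSG00000039579.15; chromosome 4, 49661611 to 49845744, minus strand) had 34, 47 and 48 reads in CTRL and 41, 49 and 56 in SEVO tumours. The groups overlapped, and the reads again stayed within a narrow range while the ratio to Olfr ran from 1.79 to 37.6. No exon base of Grin3a lies opposite another gene.

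Grin2b (ENSMUSG00000030209.14; chromosome 6, 135713233 to 136173511, minus strand), a glutamate-binding subunit, behaved in the opposite way. It had 72, 5 and 41 reads in CTRL and 11, 13 and 23 in SEVO tumours. The highest and the lowest tumour were both CTRL, and CTRL tumour 1 had 14.4 times the reads of CTRL tumour 2. Over the same tumours its ratio to Olfr stayed between 1.87 and 2.31, so its reads moved in step with those of silent genes.

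Grin2d (chromosome 7, 45831883 to 45878378, minus strand), another glutamate-binding subunit, had 24, 10 and 10 reads in CTRL and 10, 9 and 17 in SEVO tumours, and the groups overlapped. Grin1 had 14, 1 and 16 reads in CTRL and 5, 6 and 6 in SEVO tumours, and fell below the Olfr density in CTRL tumour 1. Its antisense gene Grin1os had 20, 7 and 23 reads in CTRL and 20, 16 and 8 in SEVO tumours, more than Grin1 in each of the 6 tumours, and overlaps 1307 of its exon bases. Reads on the remaining subunits were few, with 1 to 33 per tumour for Grin2a and 1 to 8 for Grin2c.

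Of the 5 glycine receptor genes, Glra4 and Glrb exceeded the Olfr density in every tumour. Glra4 (ENSMUSG00000018595.6; chromosome X, 136757674 to 136780141, minus strand), an alpha subunit whose human counterpart is a pseudogene, had 5, 28 and 8 reads in CTRL and 14, 23 and 17 in SEVO tumours. The SEVO tumours lay between the extremes of CTRL, and the ratio to Olfr ran from 1.61 to 137. All 2010 exon bases of Glra4 lie within the body of BC065397 on the opposite strand, though in none of its exons, and that gene had at most 1 read in any tumour. Glrb (ENSMUSG00000028020.16; chromosome 3, 80843599 to 80913660, minus strand), the beta subunit that anchors the receptor to gephyrin, had 23, 16 and 12 reads in CTRL and 7, 8 and 15 in SEVO tumours. Its ratio to Olfr was between 3.19 and 33.7, the groups overlapped through SEVO tumour 3, and none of its exon bases lies opposite another gene. Glra1, the adult alpha subunit, had 1 to 7 reads and exceeded the Olfr density in 5 tumours. Glra3 had 0 to 4 reads, and Glra2 had 0 reads in all 6 tumours.

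Of the genes with an entry, the 3 with the largest ratio in any tumour have the following start regions in RefSeq on GRCm38.p6 (250 bases before to 50 after the start), shown for what they share and where they differ, with every CpG in capitals. Grin3b, at chr10:79970474-79970773 on the plus strand, and Glra4, at chrX:136779672-136779971 on the minus strand, hold 3 CpG each. Glrb, at chr3:80913611-80913910 on the minus strand, holds 30.
Grin3b: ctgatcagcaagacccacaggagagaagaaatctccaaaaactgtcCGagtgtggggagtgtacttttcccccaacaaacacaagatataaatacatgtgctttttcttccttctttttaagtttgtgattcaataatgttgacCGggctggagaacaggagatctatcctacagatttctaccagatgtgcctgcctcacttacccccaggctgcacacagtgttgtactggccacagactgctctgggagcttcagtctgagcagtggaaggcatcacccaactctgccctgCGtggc
Glra4: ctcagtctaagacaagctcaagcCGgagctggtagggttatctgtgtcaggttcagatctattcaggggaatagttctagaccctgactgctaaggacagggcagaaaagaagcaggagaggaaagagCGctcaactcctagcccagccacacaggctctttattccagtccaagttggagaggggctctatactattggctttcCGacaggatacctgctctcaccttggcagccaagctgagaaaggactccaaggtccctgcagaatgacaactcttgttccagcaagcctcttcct
Glrb: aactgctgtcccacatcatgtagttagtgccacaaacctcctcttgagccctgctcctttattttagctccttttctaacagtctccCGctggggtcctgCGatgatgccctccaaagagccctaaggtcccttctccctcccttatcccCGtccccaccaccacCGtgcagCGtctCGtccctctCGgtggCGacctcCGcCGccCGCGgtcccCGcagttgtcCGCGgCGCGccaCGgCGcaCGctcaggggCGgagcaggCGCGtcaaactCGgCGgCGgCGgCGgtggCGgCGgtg
Of 32851 RefSeq start regions, 31.4% hold 3 CpG or fewer and 11.7% hold 30 or more, with a median of 7. The 44 start regions of the 36 channel genes with an entry had a median of 9.5 and a range from 0 to 33, and those of Olfr genes a median of 1.

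**Figure D2:**
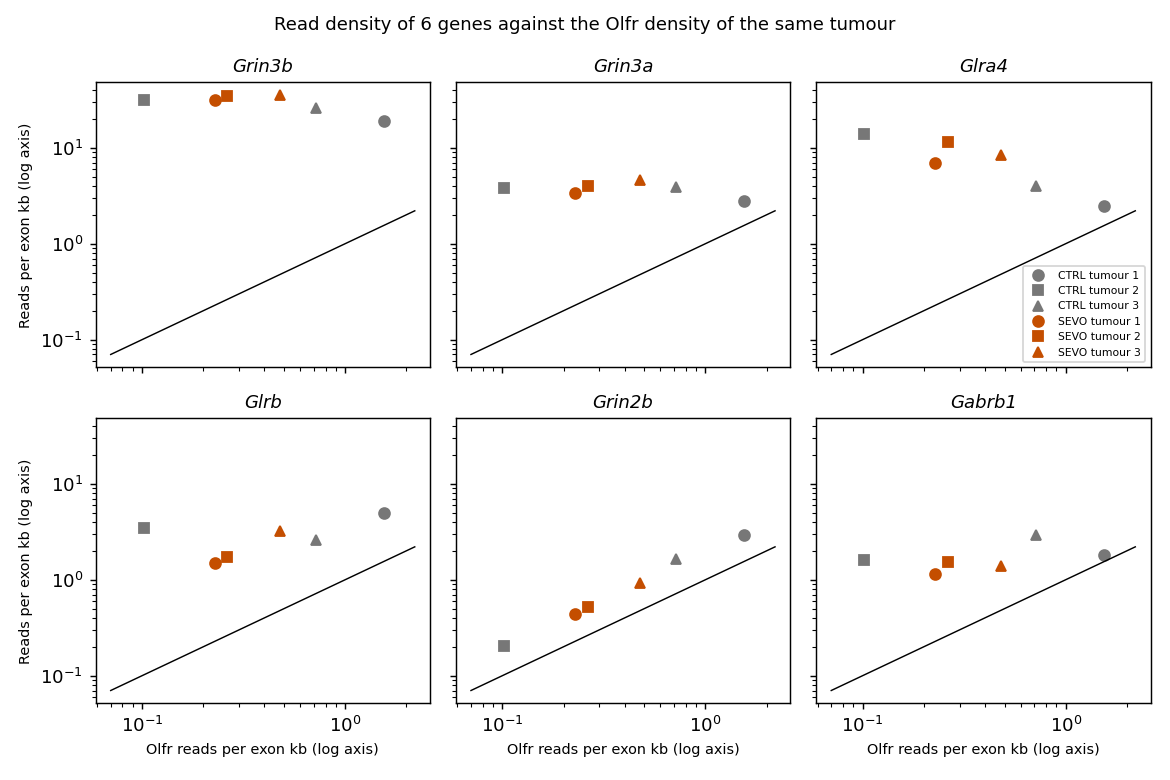
Reads per exon kb of 6 channel genes (vertical log axis) against the pooled Olfr reads per exon kb of the same tumour (horizontal log axis), with 1 symbol per tumour (CTRL grey, SEVO orange) and a line where both are equal. Grin3b and Grin3a stay almost level across the range of Olfr densities, Glra4 is highest where Olfr is lowest, and Grin2b runs parallel to the line at 1.87 to 2.31 times the Olfr density.

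GABA-A receptor genes, the largest family and the target most often named for inhaled anaesthetics, were near background as a whole. Their pooled density was 1.12, 2.36 and 1.17 times that of Olfr in CTRL and 1.46, 1.38 and 1.13 times in SEVO tumours, and 18 of the 19 genes had 0 reads in at least 1 tumour. Gabrb1 was the exception. This beta subunit (ENSMUSG00000029212.11; chromosome 5, 71658113 to 72149037, plus strand) had 25, 22 and 40 reads in CTRL and 16, 21 and 19 in SEVO tumours. In reads all CTRL tumours lay above all SEVO tumours, whereas relative to Olfr the groups overlapped, from 1.17 to 15.6 in CTRL and from 2.88 to 5.78 in SEVO. Its start is shared head to head with Gabra4, over 46 exon bases, and Gabra4 had 12, 0 and 6 reads in CTRL and 4, 3 and 8 in SEVO tumours. Among the alpha subunits, Gabra2, Gabra3, Gabra5 and Gabra6 had 0 to 13 reads. The beta subunit Gabrb2 had 0 to 18, and the gamma subunits Gabrg1 and Gabrg3 had 0 to 21. Gabrd, Gabre, Gabrp and Gabrq had 0 to 12. The rho subunits Gabrr1, Gabrr2 and Gabrr3 had 0 to 9, and Gabrr2 had 6, 1 and 2 reads in CTRL and 0 in each SEVO tumour.

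Among the K2P channels 3 of 14 genes lay above the Olfr density in every tumour. Kcnk7 (ENSMUSG00000024936.8; chromosome 19, 5704367 to 5707109, plus strand), a subunit for which no current of its own is established, had 6, 3 and 6 reads in CTRL and 7, 5 and 7 in SEVO tumours. These few reads on 1566 exon bases gave ratios of 2.47 to 19.6, and the groups overlapped in reads. Its annotated end lies 267 bases from that of the convergent gene Ehbp1l1. Kcnk10, a TREK channel opened by volatile anaesthetics, had 20, 2 and 11 reads in CTRL and 9, 3 and 12 in SEVO tumours. Kcnk18, which encodes TRESK, had 14, 1 and 4 reads in CTRL and 2 in each SEVO tumour. The other TREK genes, Kcnk2 and Kcnk4, had 0 to 15 and 3 to 9 reads, and of the TASK genes Kcnk3 had 0 to 4 and Kcnk9 2 to 50. Kcnk1, Kcnk5, Kcnk6, Kcnk12, Kcnk13, Kcnk15 and Kcnk16 had 0 to 13 reads per tumour.

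Of the HCN genes only Hcn2 exceeded the Olfr density in every tumour, with 10, 6 and 4 reads in CTRL and 6, 3 and 7 in SEVO tumours and overlapping groups. Its end lies 15 bases from that of the convergent gene Polrmt. Hcn3 had 0 to 16 reads and Hcn4, the pacemaker channel of the sinus node, 0 to 13.

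In total the 49 genes collected 691, 268 and 421 reads in CTRL and 282, 297 and 403 in SEVO tumours. Their pooled density was 1.49, 8.78 and 1.97 times the Olfr density in CTRL and 4.13, 3.78 and 2.82 times in SEVO tumours. All SEVO values lay within the range of CTRL. Without Grin3b, Grin3a and Glra4, left out after their values were seen, the same ratios were 1.35, 3.13 and 1.39 in CTRL and 1.93, 1.51 and 1.59 in SEVO tumours.

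For the comparison of SEVO with CTRL, the quasi-likelihood test of edgeR with TMM normalization was fitted on the 7561 genes kept by filterByExpr. Only 7 of the 49 channel genes had enough reads to enter it (Gabrb1, Glra4, Glrb, Grin2b, Grin2d, Grin3a and Grin3b). None of the 7 had an adjusted p under 0.05 in edgeR, like the 0% of all tested genes, and none had an unadjusted p under 0.05 (4.36% of all genes). Under close alternatives 1 channel gene did. It was Grin2b with the size factors of DESeq2 (1 of 7 channel genes and 350 of all 7561 genes). Without Gm10800 and Gm10801 it was again Grin2b (1 of 8 and 328 of all 7729). With at least 10 reads in every tumour it was Gabrb1 (1 of 3 and 235 of all 4480). DESeq2 on all genes with a read likewise gave 0 of 48 channel genes at an adjusted p under 0.05, and 1 of 48 at an unadjusted one, against 0.625% of all 42422 genes with a p-value. At the thresholds used in the study, an unadjusted p under 0.02 and a fold change of at least 1.5, 0 of the 7 passed in edgeR, against 1.04% of all genes. A log2 fold change above 0, higher in SEVO, was found for 3 of the 7 genes and 48.9% of all genes, and the median was -0.42 over the 7 and -0.02 over all.

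In normalised counts, given as CPM after scaling the libraries by TMM, Grin3b had 101 ± 26.5 in CTRL and 122 ± 4.10 in SEVO (SD, n = 3 each). The log2 difference of SEVO from CTRL was 0.27 (SE 0.32, adjusted p = 0.790 in edgeR), smaller than its standard error (SE). Grin3a was level, with 51.8 ± 9.29 CPM in CTRL and 53.6 ± 7.02 in SEVO and a log2 difference of 0.05 (SE 0.32, adjusted p = 0.952 in edgeR). For Glra4, with 16.8 ± 16.0 and 19.8 ± 4.42 CPM, the log2 difference was 0.24 (SE 0.64, adjusted p = 0.887 in edgeR). These 3 genes were the ones with a positive sign, and each of them turned negative when the libraries were scaled by their Olfr reads, to -0.042, -0.15 and -0.55.

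The 4 other genes were lower in the mean of SEVO, none beyond the test. Grin2b had 46.9 ± 40.6 CPM in CTRL and 17.2 ± 6.84 in SEVO, a log2 difference of -1.44 (SE 0.67, adjusted p = 0.741 in edgeR). Scaled by Olfr reads the difference of Grin2b was -0.071 (SE 1.14). Gabrb1 had 34.6 ± 9.87 CPM in CTRL and 20.5 ± 2.07 in SEVO, with a log2 difference of -0.75 (SE 0.41, adjusted p = 0.741 in edgeR). It was the single gene of the 7 whose groups did not overlap in CPM, as they did not for 8.56% of all genes. Scaled over all genes with a read, its groups overlapped. Glrb had 20.6 ± 7.09 and 11.0 ± 4.65 CPM, a log2 difference of -0.89 (SE 0.57, adjusted p = 0.741 in edgeR). Under Olfr scaling the difference of Glrb was -0.86, with a standard error larger than the difference (SE 1.11). Grin2d had 17.7 ± 9.90 and 13.2 ± 4.69 CPM, with a log2 difference of -0.42 (SE 0.59, adjusted p = 0.809 in edgeR) that became 0.048 under Olfr scaling.

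**Figure D3:**
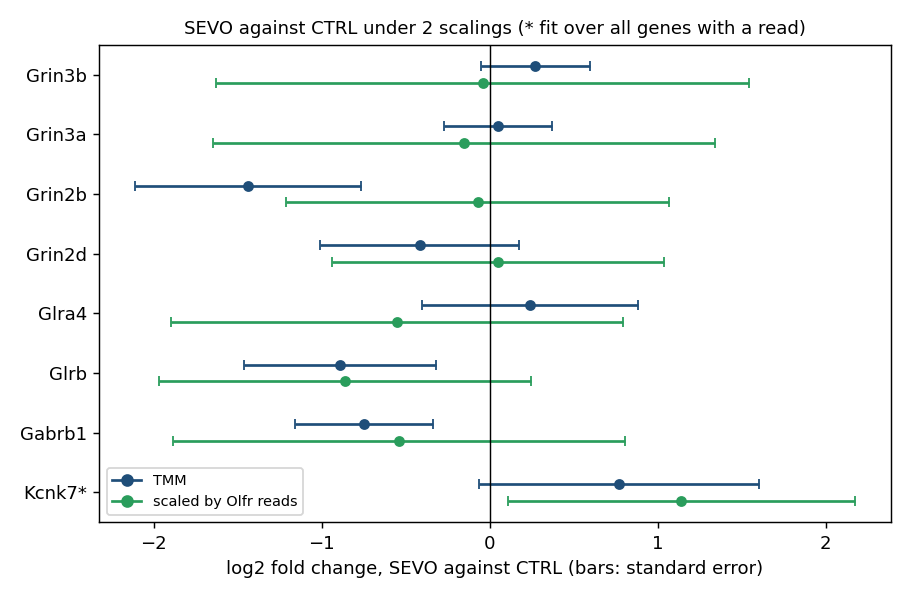
Log2 fold change of SEVO against CTRL (horizontal axis, bars are the standard error) for 8 channel genes in edgeR, with TMM normalization (blue) and with libraries scaled by Olfr reads (green); the gene with an asterisk comes from the fit over all genes with a read. All bars of the scaling by Olfr reads but that of Kcnk7 include 0, and the change of Grin2b moves from -1.44 to -0.071.

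The genes with fewer reads were read from the same edgeR test over all 42423 genes with at least 1 read, which holds 48 of the 49 channel genes since Glra2 had none. None had an adjusted p under 0.05 in edgeR (0% of all genes), 2, Gabrr2 among them, had an unadjusted p under 0.05 (2.41% of all genes), and 1 passed the thresholds of the study (0.627% of all genes). Kcnk7 had 4.48 ± 1.02 CPM in CTRL and 7.75 ± 1.87 in SEVO (SD, n = 3 each), and the log2 difference was 0.77 (SE 0.83, adjusted p = 0.793 in edgeR). Its groups did not overlap in CPM although they did in reads. A positive sign was seen for 13 of the 48 genes and 38.1% of all genes with TMM, and for 19 of the 48 and 48.4% of all with Olfr scaling, where the median of all genes moved from -0.38 to -0.04. With that scaling Kcnk3, with 1, 0 and 0 reads in CTRL and 3, 0 and 4 in SEVO tumours, was the 1 of 48 channel genes that passed the thresholds of the study, as 1.01% of all genes did.

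A single tumour decided how many channel genes passed. Without CTRL tumour 2, which had the fewest background reads, 3 channel genes, Grin2a and Grin2b among them, passed the thresholds of the study in edgeR, together with 1449 of all 8961 genes then tested. The lowest adjusted p of a channel gene was 0.0532 in edgeR in that setting, against 0.741 with all tumours.

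Partner genes of these channels, 88 in 4 lists written by hand, were read in the same way. In every tumour 34 of the 88 lay above the Olfr density, against 36.5% of all protein-coding genes. The 95th percentile of Olfr genes was exceeded in every tumour by 11 of the 88, against 15.8% of all protein-coding genes. These were 3 of 27 genes of GABA and glycine synapses (Slc6a9, Gabarapl1 and Slc12a5), 2 of 26 of the NMDA receptor (Homer3 and Srr), 2 of 8 of HCN and K2P channels (Akap5 among them) and 4 of 27 other reported targets of anaesthetics (Kcnq1, Chrnb2, Stx1a and Unc13a). Exon bases opposite another gene are present in 8 of the 11, all but Slc12a5, Akap5 and Stx1a. Slc12a5, the chloride exporter that makes GABA inhibitory in neurons, had 38, 9 and 31 reads in CTRL and 11, 18 and 14 in SEVO tumours.

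The highest of them was Srr, the serine racemase that makes the NMDA co-agonist D-serine, with 333, 932 and 444 reads in CTRL and 936, 917 and 558 in SEVO tumours. Srr shares 1366 exon bases with Tsr1 on the opposite strand, a gene of ribosome maturation that had 66 to 165 reads. Unc13a, a synaptic vesicle priming factor, had 245 to 419 reads in CTRL and 349 to 476 in SEVO tumours, while Colgalt1 on the opposite strand had 5 to 18 in CTRL and 4 to 8 in SEVO. Chrnb2, a nicotinic receptor subunit, had 95 to 269 and 226 to 297 reads, while Adar, opposite to it, had 9 to 41 and 8 to 21. In all 3 the groups overlapped, and the partner gene had more reads than the gene opposite to it in every tumour.

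Of the 88 partner genes 29 entered the edgeR test, where 0 had an adjusted p under 0.05 in either direction. An unadjusted p under 0.05 was found for 1 of the 29, against 4.36% of all genes. It was the sodium channel gene Scn8a (log2 difference -1.41, SE 0.48, adjusted p = 0.741 in edgeR). With TMM 6 were higher and 23 lower in SEVO, with a median of -0.90 against -0.02 over all genes. Scaled by Olfr reads, 13 were higher and 16 lower, with a median of -0.03 against -0.02 over all genes.

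**Figure D4:**
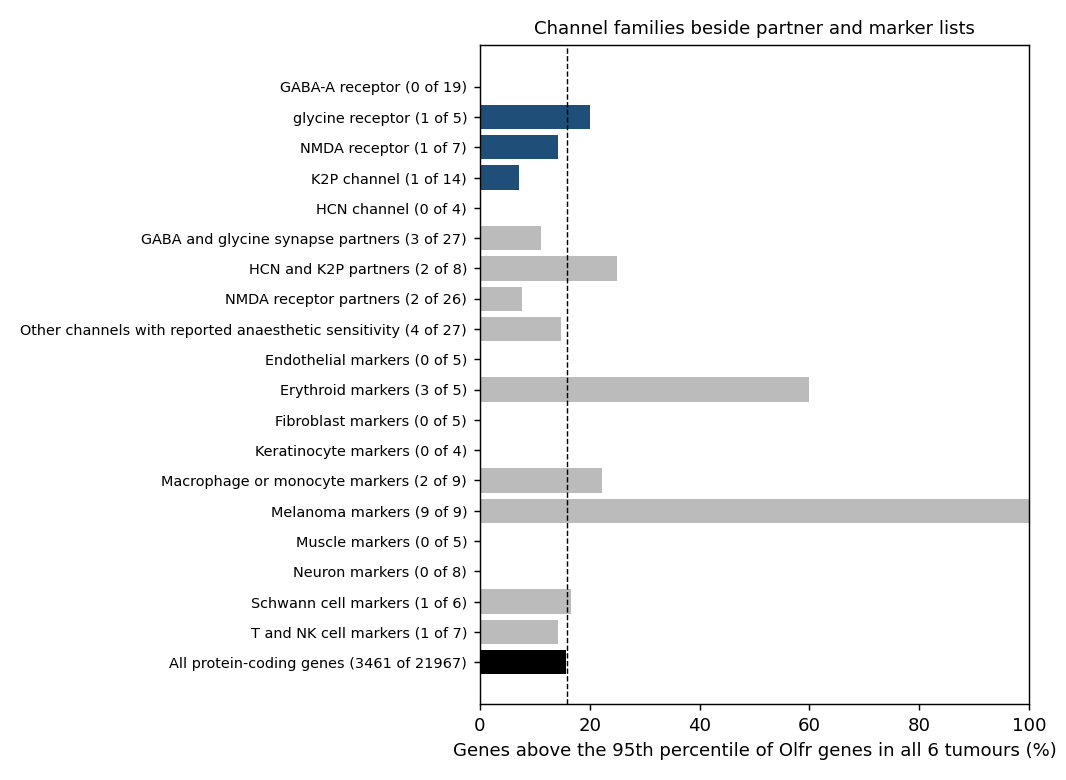
Share of genes above the 95th percentile of single Olfr genes in all 6 tumours (horizontal axis, percent) for the 5 channel families (blue), the lists of partner and marker genes (grey) and all protein-coding genes (black, and the dashed line at 15.8%), with counts in brackets. The melanoma markers reach 9 of 9, while GABA-A receptor and HCN channel genes, like the neuronal markers, reach 0.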

How the data were processed

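RNA-seq of 3 CTRL and 3 SEVO tumours was used as raw read counts per gene, which the authors deposited without normalization. The study names FastQC, SortMeRNA for ribosomal RNA, Trimmomatic, STAR, SAMtools and HTSeq with GENCODE release M17 on GRCm38.p6, and the processing notes of the submitters give Trimmomatic 0.36, STAR 2.6.0c, SAMtools 1.8.3 and HTSeq 0.9.1. The strand setting of HTSeq is not given in the sources used here. The tallies of uncounted reads stayed out of library sizes.

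Names, exons and positions came from GENCODE release M21 of the same build, by identifier without version (53706 of 53801 matched). Density divides reads by the merged exons of all transcripts of a gene, so genes with long rarely used exons read low. A background of silent genes was taken as the pooled density of 1135 Olfr genes, or as the 95th percentile of single ones.

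SEVO and CTRL were compared with edgeR 4.0.16 (quasi-likelihood, TMM, filterByExpr) in R 4.3.3, with Benjamini-Hochberg adjustment over all genes tested. Standard errors were derived from its F statistic. DESeq2 1.42.0 was an alternative. The code was tested on simulated data. The 723431 to 1348676 reads counted on genes per tumour limit precision, and Poisson intervals cover counting error only.

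Genes were named with the reads of each tumour if they passed filterByExpr, exceeded the percentile in every tumour or passed the thresholds of the study, and the rest by their range. Grin1os, Grin2a, Hcn2, Kcnk10, Kcnk18, Gabra4, Gabrr2, Kcnk3 and Scn8a were singled out after their values were seen. The channel genes and the lists were chosen with earlier results of these data known. Alternatives changed the background genes, exon length, scaling, filter, test, replicate block, or left out each tumour. The labels do not say whether equal replicate numbers pair the tumours, and the main test did not treat them as pairs. The results of a few genes are not reported here.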

Additional observations from a re-analysis of the deposited data

How the results depend on the processing

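Under all 15 alternatives, in edgeR or DESeq2, 0 channel genes had an adjusted p under 0.05. The 11 genes above the Olfr density became 4 with the Poisson lower bound and 7 when genes with exon bases opposite another gene were left out (an alternative chosen after seeing the data), and were 16 against vomeronasal receptor genes and 11 to 13 when each tumour was left out. The 3 above the 95th percentile became 5 against vomeronasal receptor genes (325 genes), 1 with the Poisson bound, and 3 to 5 when each tumour was left out. At the thresholds of the study the 0 genes became 1 over all genes with a read, 1 with Olfr scaling over the same genes (chosen after seeing the data), and 0 to 3 when each tumour was left out, with 3 without CTRL tumour 2 (1449 of all 8961 genes) and 1 without SEVO tumour 3 (479 of all 8383 genes).

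Of genes higher in SEVO, 3 of 7 became 1 of 7 with Olfr scaling, 1 of 3 with at least 10 reads in every tumour, 13 of 48 over all genes with a read, 9 of 48 with DESeq2, 19 of 48 with Olfr scaling over all genes, and 2 to 3 when each tumour was left out. The pooled log2 ratio to Olfr, 0.26 higher in SEVO, ranged from -0.24 to 1.04 when each tumour was left out.

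Signs reversed for Grin3b (-0.042 and, unfiltered, -0.041 with Olfr scaling), Grin3a (-0.15 with Olfr scaling, filtered or not, -0.12 with at least 10 reads, -0.086 to 0.29 when each tumour was left out), Grin2d (0.048 and, unfiltered, 0.031 with Olfr scaling, 0.16 over all genes, -0.68 to 0.14 when each tumour was left out) and Glra4 (-0.55 with Olfr scaling, filtered or not, -0.15 to 1.49 when each tumour was left out). The cause was not tested. Grin2b, Glrb and Gabrb1 kept their sign in every alternative that gave them a value, though Grin2b was only -0.071 with Olfr scaling. Kcnk7 had a value in only 2 alternatives, neither of which left out a tumour, and kept its sign in both. When each tumour was left out, Grin2b ranged from -1.80 to -0.63 (-0.63 without CTRL tumour 1), Glrb from -1.24 to -0.61 and Gabrb1 from -0.83 to -0.43, and Gabrb1 was -0.27 over all genes with a read.

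With the replicate number as a block, 0 channel genes had an adjusted p under 0.05, 0 passed the thresholds of the study and 3 of 7 were higher, while over all genes 1 and 129 passed, against 0 and 79 without it. Same-numbered tumours correlated at -0.40, 0.32 and 0.08 in their deviations from the group means. Differently numbered tumours ranged from -0.55 to 0.59, so these correlations cannot decide whether equal numbers mark a pair. Reads were few, with 7 of the 49 genes kept by filterByExpr.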
